A study of Mus musculus with 2 samples.

Results

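The data are 36 listed nuclear receptor genes, of which 33 were named by a single gene symbol on 59 probe sets, among 12393 genes named in that way on 20380 probe sets. Nr1h2, Nr2e3 and Nr3c2 had no such probe set, and their expression was not analysed here. Each gene is given by its brightest probe set on average over both arrays, and its others are described beside it. RNA came from livers of apolipoprotein E-deficient male mice of the C57BL/6J/ OLA129 background, with an age of 2 months given for both groups, all fed chow. The control pool drank 1% glycerol, and the squalene pool drank 1% glycerol that also supplied squalene in a daily dose of 1 g per kg, both for 10 weeks. Each pool was read on 1 array. How many mice make up a pool was not given in the sources used here and the spread between animals is unknown. No test between the pools can be made, and every ratio compares these 2 arrays only.

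Nuclear receptors are transcription factors that a small lipophilic ligand can switch, and many of them work in the liver as sensors of fatty acids, oxysterols, bile acids, hormones and foreign chemicals. Most of the metabolic receptors bind DNA as a pair with a retinoid X receptor, exchange corepressors for coactivators when ligand is bound, and then turn on genes of lipid, bile acid, glucose or drug metabolism. Squalene, the compound given to the mice, is a triterpene precursor of cholesterol.

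A signal was called read when it lay at or above the median of its array, 39.9 for the control array and 41.3 for the squalene array. Apoe itself stood at 141.0 in control liver and 130.6 with squalene, but both pools carry the deletion and its probe set checks nothing between them. Of 20 hepatocyte markers, 17 had a probe set and all 17 were read in both pools, with log2 ratios from -0.27 to 0.07. All 18 probe sets of the hybridization spike-ins had ratios below 0 (median -0.26). Scaling to them moved the median of all genes from 0.01 to 0.27, so ratios are given below relative to the authors' scaling. In bulk liver, fewer cells of a type and less RNA per cell cannot be told apart.

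Most receptors that the arrays could read had much the same signal in both pools. Both signals were read for 19 of the 33 genes, 1 signal for 3 and neither for 11. Among the 19, the log2 ratio of squalene over control ran from -0.79 for Rxrb to 0.51 for Thra, and 17 lay within 0.5 of 0. Thra was the single gene higher by more than 0.5, where 7.85% of the 6459 genes read in both pools were, and Rxrb the single gene lower by more than 0.5, where 6.35% were. Their median was 0.01, as was that of all genes read in both pools, and their median absolute ratio was 0.23 beside 0.21. None of the 19 passed the log2 limit of 1.5 in either direction that the submitters set as their screen, beside 0.0774% of genes higher and 0.0464% lower. Thra was no longer beyond 0.5 after median centring, quantile normalization or loess. With ratios centred on the spike-ins 6 of the 19 were higher and 1 lower by more than 0.5. That centring raises every ratio by the same amount, to a median of 0.27 over all genes read in both pools. Their share beyond 0.5 was not counted under it.

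**Figure D1:**
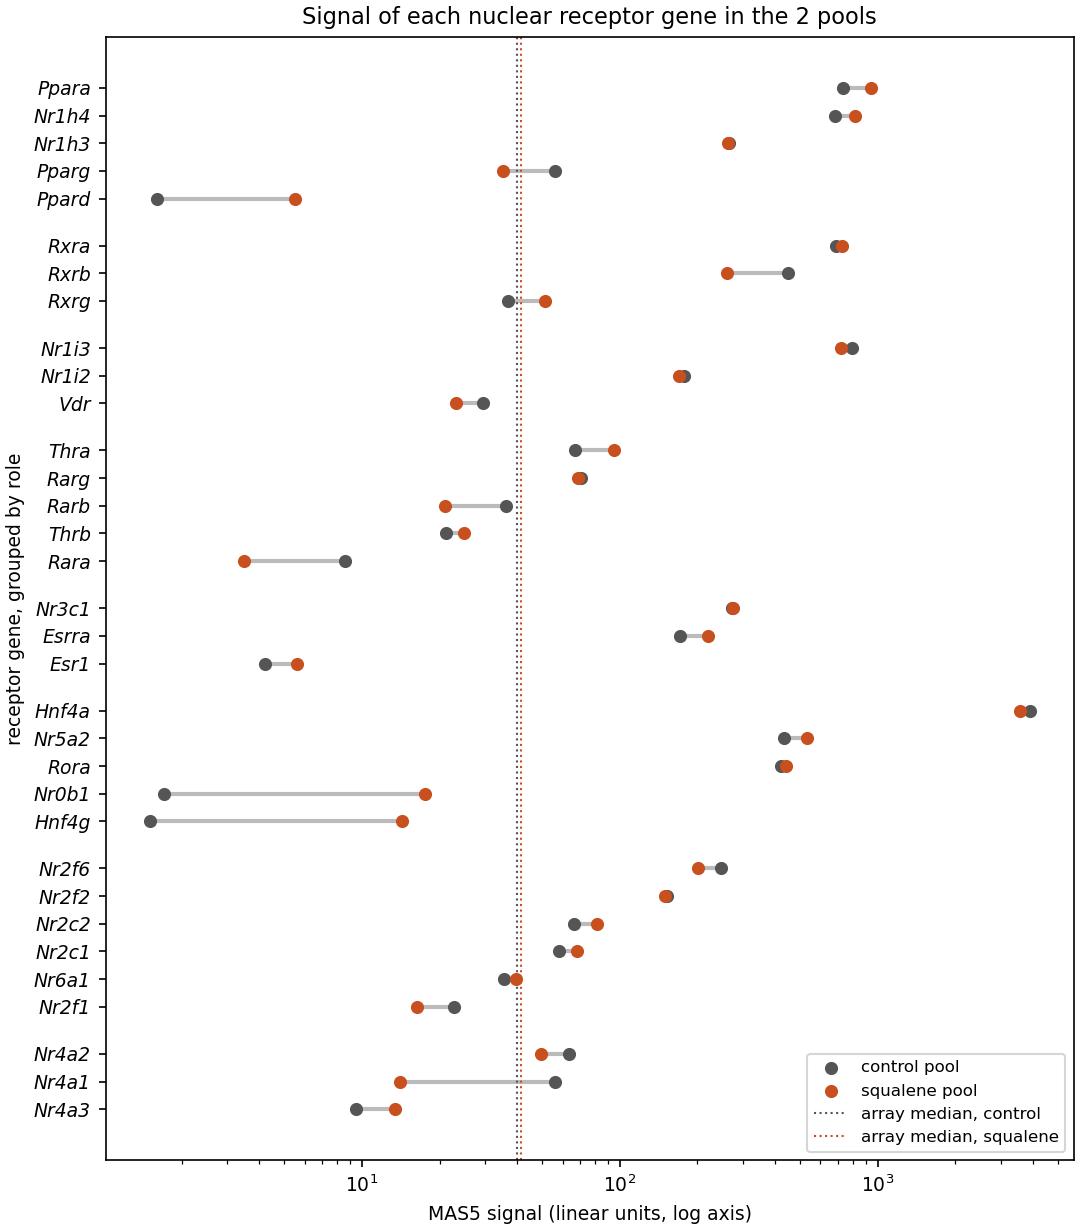
MAS5 signal of each of the 33 receptor genes (rows, grouped by role) in the control pool (grey) and the squalene pool (orange) on a log axis, with 1 value per pool and dotted lines at the array medians of 39.9 and 41.3. Both points nearly coincide for most genes to the right of the medians, where Rxrb is the clear exception. The wide gaps lie to the left or, for Nr4a1 (56.2 and 14.1), across the medians.

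The spread between probe sets of the same gene was used as the error of a ratio. It covers neither differences between arrays, such as the offset of the spike-ins, nor those between pools. Its SD in log2 ratio was 1.91 in the dimmest tertile of mean signal, 0.71 in the middle and 0.24 in the brightest. Of the 14 receptor genes in the brightest tertile, 8 lay within 1 such SD of 0 and 13 within 2, beside 60.3% and 87.6% of all genes in that tertile, and Rxrb lay outside. Differences below these sizes cannot be told from that spread.

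Among the lipid and bile acid sensors, the 3 read receptors were level or slightly higher in the squalene pool. Ppara encodes the fatty acid sensor PPAR alpha, which drives fatty acid oxidation in fasting, and its signal was 734.5 in control liver and 944.3 with squalene (log2 ratio 0.36). Nr1h4, which encodes the bile acid receptor FXR, read 685.4 and 820.6 (0.26). Nr1h3, which encodes the oxysterol receptor LXR alpha, read 265.8 and 263.5 (-0.01). Each of these rests on a single probe set, and only the ratio of Nr1h3 lay within the 0.24 SD between probe sets.

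The other PPAR genes were near or below what the arrays could read. Pparg, the receptor of adipocytes and some macrophages, read 56.3 in the control pool but only 35.1, below the array median, in the squalene pool (-0.68). That is a smaller difference than the SD of 0.71 between probe sets at such signals, and 40.8% of the 871 genes read in 1 pool were lower by more than 0.5. Ppard, a more widely expressed fatty acid sensor, read 1.6 and 5.5, both far below the medians, and its log2 ratio of 1.78 rests on signals that were not read.

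The retinoid X receptors, the shared dimer partners, gave unlike ratios. Rxra, the main hepatic form, read 690.0 in control liver and 724.9 with squalene (0.07), and its other probe set gave 0.12. Rxrb read 449.3 in control liver and 260.4 with squalene, or 1.73-fold lower with squalene (-0.79). By the brightest probe set of each gene, this was the only receptor of the brightest tertile whose ratio exceeded 2 SD between probe sets. In that tertile, 1.15% of all genes had a ratio as low or lower. With ratios centred on the spike-ins it stood at -0.53. Rxrb has 1 probe set here, so no other reading of the same transcript was at hand. Rxrg, a form of muscle and brain, read 37.0 and 51.4 (0.47), with the control signal below the median.

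The promoter of Rxrb is given for comparison with those of the NR4A genes further on, as the 250 bases before the first of its start sites in the RefSeq table, on build GRCm38.p6 at chr17:34031562-34031811, plus strand. Capitals mark TGACG on either strand, the core of the cAMP response element.
Rxrb: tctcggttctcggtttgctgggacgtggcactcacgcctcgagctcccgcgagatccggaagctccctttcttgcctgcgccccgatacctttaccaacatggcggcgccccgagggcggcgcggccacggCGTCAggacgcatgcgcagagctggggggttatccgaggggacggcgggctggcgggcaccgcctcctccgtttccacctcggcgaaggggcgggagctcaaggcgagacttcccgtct
It holds the core 1 time.

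The xenobiotic receptors were level. Nr1i3 encodes CAR and Nr1i2 encodes PXR, which induce cytochrome P450 enzymes and transporters when foreign chemicals or bile acids accumulate. Nr1i3 read 792.6 in control liver and 722.7 with squalene (-0.13). Nr1i2 read 177.5 and 169.5 on its brightest probe set (-0.07), and 109.6 and 143.1 on the other (0.38), so its probe sets lay on opposite sides of 0. Vdr, the vitamin D receptor, which hepatocytes hardly express, read 29.5 and 23.1 and on its second probe set 3.0 and 2.1, all below the medians.

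Among receptors for thyroid hormone and retinoic acid, Thra stood highest, without agreement between its probe sets. Thra read 66.8 in control liver and 95.1 with squalene on one probe set (0.51) and 43.7 and 34.1 on the other (-0.36), with the last signal below the median. The Thra gene overlaps Nr1d1, which encodes the clock repressor REV-ERB alpha, in the RefSeq gene table, and Nr1d1 itself read 74.8 and 96.2 (0.36). Whether a Thra probe set lies in the shared part was not analysed here. Thrb, the main hepatic thyroid hormone receptor, read only 21.2 and 24.8, so this array cannot place it.

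The retinoic acid receptors were mostly dim. Rarg read 71.0 in control liver and 68.7 with squalene (-0.05), while its dimmer probe set gave 0.50. Rarb, itself a target of retinoic acid, read 36.2 and 21.0 (-0.79), and Rara read 8.6 and 3.5 (-1.30). All 4 of those signals were below the array medians, where 33.4% of genes read in neither pool were lower by more than 0.5.

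The steroid receptors that were read did not differ beyond 0.5. Nr3c1, the glucocorticoid receptor, read 272.3 in control liver and 274.6 with squalene (0.01), and its other probe sets gave -0.10 and 0.18. With 3 probe sets within 0.28 of each other, it has the narrowest range of the genes with 3 or more apart from Rora. Esrra, a regulator of mitochondrial genes that needs no known hormone, read 170.8 and 219.4 (0.36) on 1 probe set. Esr1, the oestrogen receptor alpha, read 4.2 and 5.6, far below the medians.

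The receptors that maintain hepatocyte identity were read on most probe sets, and the sign for Hnf4a and Nr5a2 depended on the probe set. Hnf4a, the master regulator of hepatocyte genes, read 3891.8 in control liver and 3564.5 with squalene on its brightest probe set (-0.13). Its other 3 probe sets gave 0.32, 0.42 and 0.39, the range over all 4 being 0.55. Their mean of 0.25 has the opposite sign to the brightest one.

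Nr5a2, which encodes LRH-1, a regulator of bile acid synthesis genes, read 432.6 and 530.7 (0.29), and 235.7 and 234.5 on its next probe set (-0.01). Another probe set of Nr5a2, read in both pools at 91.3 and 143.9, gave 0.66, which exceeds 2 SD between probe sets of the brightest tertile. The dimmest gave -2.60, at 25.4 against 4.2. Rora, a receptor that activates clock and lipid genes, had 3 probe sets above 0, at 420.6 and 439.5 (0.06), 197.7 and 244.2 (0.30), and 23.5 and 24.5 (0.06). Rora was thus level on its brightest probe set, within the SD between probe sets.

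Hnf4g and Nr0b1 had the highest ratios of the family, and neither was read. Hnf4g, a paralogue of Hnf4a found in gut and kidney, read 1.5 in control liver and 14.3 with squalene (3.25), but 7.6 and 1.2 on its other probe set (-2.66). Nr0b1, which encodes the adrenal and gonadal repressor DAX1, read 1.7 and 17.5 (3.36). Together with Ppard these are the 3 of 33 receptors past 1.5 upwards, where 7.86% of all genes were. Among genes read in neither pool, 17.6% were.

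The orphan receptors of the NR2 and NR6 groups showed small differences. Nr2f6 read 247.7 in control liver and 201.4 with squalene (-0.30), and -0.13 on its other probe set. Nr2f2, which encodes COUP-TFII, a factor of veins and stroma as well as hepatocytes, read 152.6 and 149.3 (-0.03), with 0.45 and 0.52 on its dimmer probe sets. Nr2c2, which encodes the testicular receptor TR4, read 66.5 and 81.7 (0.30), and Nr2c1, its TR2 partner, read 58.3 and 68.5 (0.23).

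Probe sets of these genes agreed in part. Both probe sets of Nr2c1 lay above 0 (0.23 and 0.87) and both of Nr2f6 below it, whereas the 4 of Nr2c2 ran from -1.08 to 0.34. Nr6a1, a germ cell factor, read 35.4 and 39.7 (0.17) and on its other probe set 13.2 and 23.9 (0.86), and Nr2f1, the COUP-TFI gene, 22.8 and 16.4, all below the medians.

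**Figure D2:**
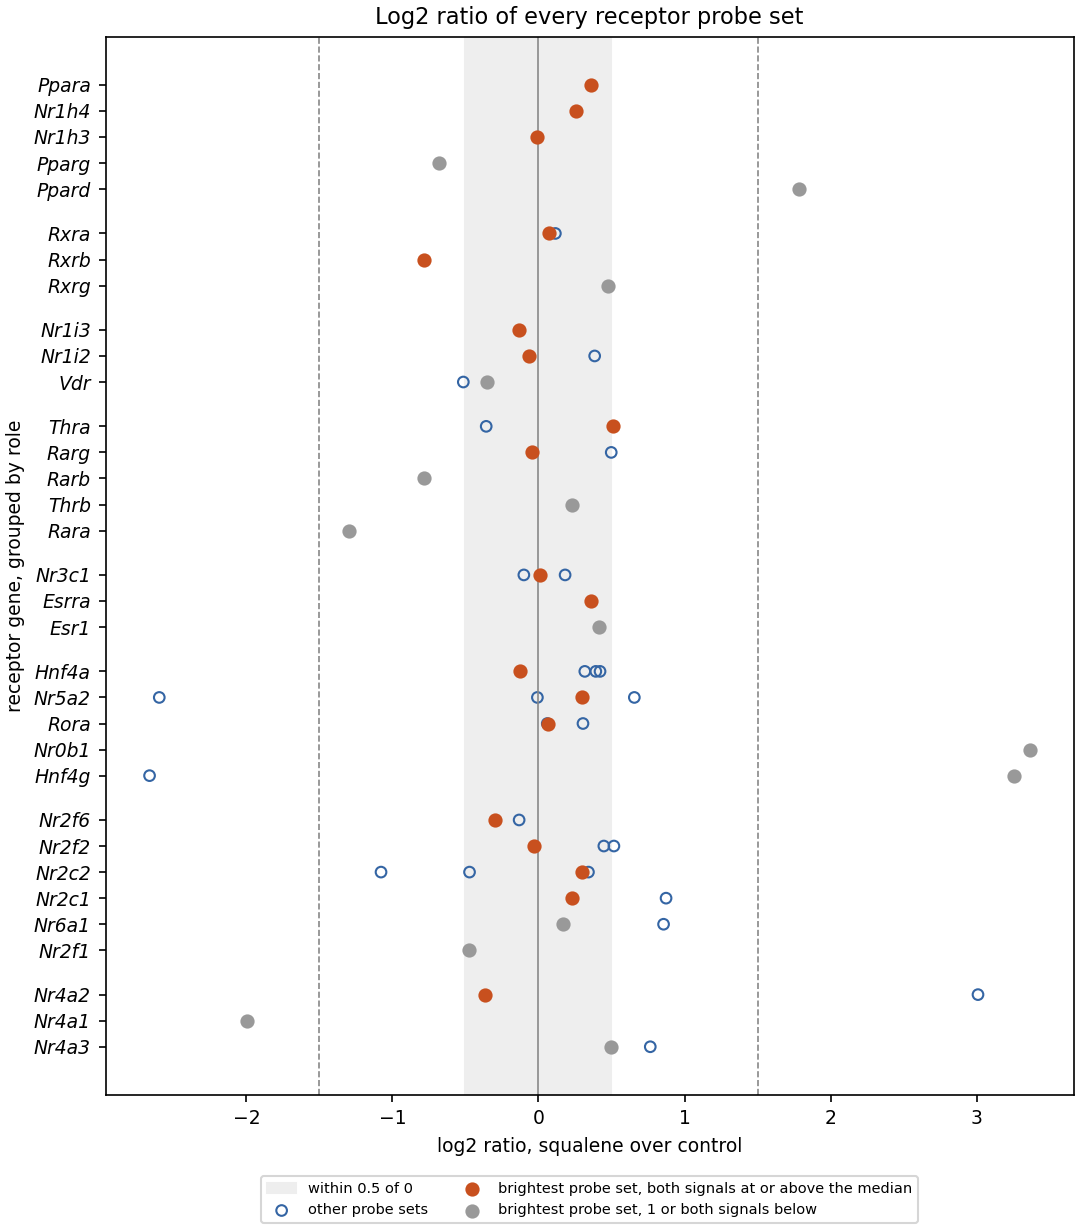
Log2 ratio of squalene over control for all 59 probe sets of the 33 receptor genes (rows, grouped by role). Filled points are the brightest probe set of a gene (orange where both signals were read, grey otherwise), open points the others, the grey band spans 0.5 either side of 0 and the dashed lines mark 1.5. Orange points crowd into the band except Rxrb and, at its edge, Thra.

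Over the family, 17 genes had more than 1 probe set. In 7 of these (Nr2c1, Nr2f6, Nr4a3, Nr6a1, Rora, Rxra and Vdr) all probe sets had the same sign, and in 10 they did not. The share over all genes was not counted. Signals of Nr4a3, Nr6a1 and Vdr were all below the medians, and in Nr4a2 and Nr2c2 only unread probe sets had the opposite sign to the brightest. No probe set of Hnf4g was read. Below the medians too were the dimmest probe sets of Rora (23.5 and 24.5), Nr5a2 (25.4 and 4.2) and Nr2f2 (22.3 and 31.9). The second probe sets of Nr2c1 (30.4) and Rarg (33.7) were below the median in the control pool only. The remaining 16 genes, Rxrb, Ppara, Nr1h4, Nr1h3 and Nr4a1 among them, rest on a single probe set.

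The NR4A receptors are immediate early genes, induced within minutes by cAMP, stress or growth signals and active without a known ligand, and in liver they take part in the fasting response. Nr4a1, which encodes NUR77, read 56.2 in control liver and 14.1 with squalene, or 3.99-fold lower with squalene (-1.99). It was the single receptor past 1.5 downwards, beside 7.3% of all genes and 9.3% of the genes read in 1 pool only. In the middle tertile of mean signal, 29 of 3937 genes (0.737%) had a ratio as low or lower. Of the 13 receptors in that tertile 12 lay within 2 SD between probe sets, beside 94.3% of all genes there, and Nr4a1 lay outside. Its squalene signal was below the array median, and with signals raised to the medians the ratio was -0.44. Expression of this gene is known to vary with feeding and the hour of the day, and neither was given for the pools in the sources used here. Their part in the ratio was not tested. Nr4a2 read 63.7 and 49.4 on its brightest probe set (-0.37), and 1.9 and 15.3 on the other (3.01). Nr4a3 read 9.5 and 13.4 (0.50) and 2.0 and 3.4 (0.77), all below the medians.

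The 3 NR4A promoters are shown because they share a feature tied to how these genes are known to be induced, and because Nr4a1 had the lowest ratio of the family. Each is the 250 bases before the RefSeq start site on build GRCm38.p6, printed along the gene's strand, with every TGACG of either strand in capitals (the reverse strand reads CGTCA). They lie at chr15:101266596-101266845 on the plus strand for Nr4a1, chr2:57124004-57124253 on the minus strand for Nr4a2, and chr4:48045055-48045304 on the plus strand for Nr4a3.
Nr4a1: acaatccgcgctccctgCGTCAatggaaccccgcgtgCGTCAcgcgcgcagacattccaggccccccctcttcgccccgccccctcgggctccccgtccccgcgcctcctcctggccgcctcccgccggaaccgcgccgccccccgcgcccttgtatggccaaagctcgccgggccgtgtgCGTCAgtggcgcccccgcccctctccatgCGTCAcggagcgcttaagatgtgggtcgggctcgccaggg
Nr4a2: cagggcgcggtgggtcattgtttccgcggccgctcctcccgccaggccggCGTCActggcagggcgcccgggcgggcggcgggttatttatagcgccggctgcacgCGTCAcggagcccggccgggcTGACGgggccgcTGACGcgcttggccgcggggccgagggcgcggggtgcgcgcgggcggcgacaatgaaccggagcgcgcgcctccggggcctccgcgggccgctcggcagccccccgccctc
Nr4a3: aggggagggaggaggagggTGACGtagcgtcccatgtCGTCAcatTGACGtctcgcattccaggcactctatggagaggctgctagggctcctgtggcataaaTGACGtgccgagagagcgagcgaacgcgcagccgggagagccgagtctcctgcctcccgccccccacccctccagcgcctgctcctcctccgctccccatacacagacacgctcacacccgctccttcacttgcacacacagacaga
Each of the 3 holds the core 4 times, and 0.137% of the 32851 mouse promoters in the RefSeq table hold it 4 or more times. At least 1 copy was found in 17.8% of all promoters and in 10 of the 49 promoters listed for 33 of the 36 receptor genes, Rxrb and Ppara included. That table holds Nr1h2, Nr2e3 and Nr3c2, and no entry was matched for Thra, Hnf4g and Nr3c1. The copies nearest the start site end 35 bases before it in Nr4a1, 106 in Nr4a2 and 142 in Nr4a3. The full palindrome TGACGTCA was in none of the 49, beside 1.55% of all promoters. These matches describe the letters of the windows, and the arrays hold no measure of binding.

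**Figure D3:**
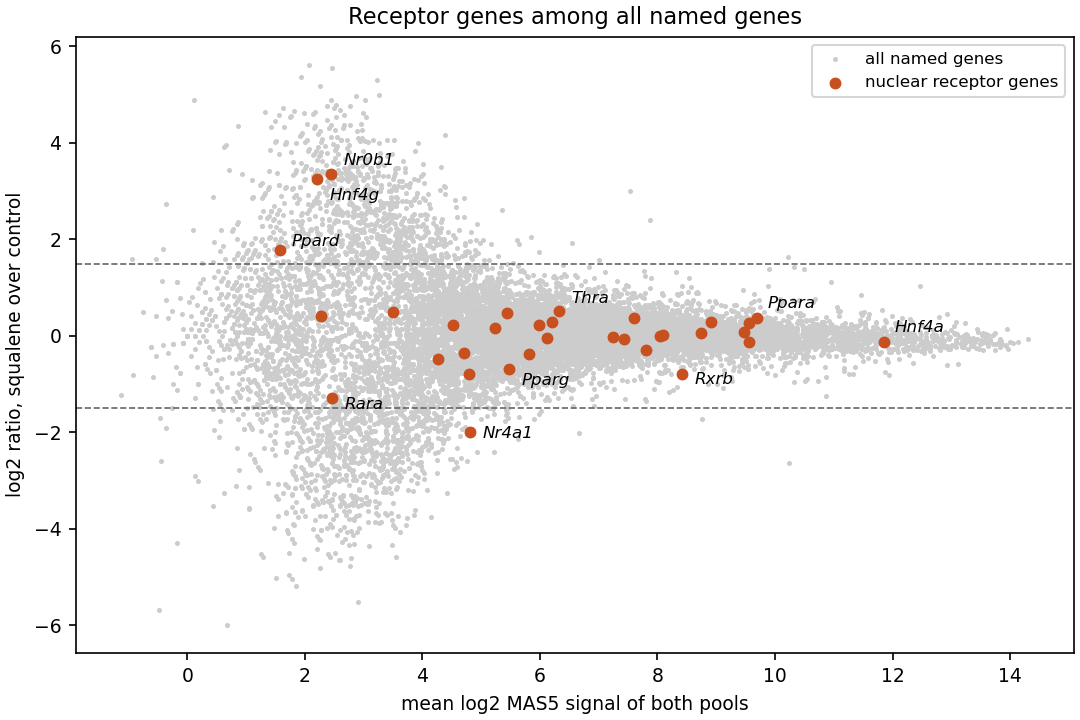
Log2 ratio of squalene over control against the mean log2 MAS5 signal of both pools, for all 12393 named genes (grey) and the 33 receptor genes (orange, 10 of them named). Dashed lines mark a log2 ratio of 1.5 either way. Grey points fan out at low signal, where Nr0b1, Hnf4g, Ppard and Rara lie, and the brighter receptors other than Rxrb stay near 0.

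Over all 33 genes, dim ones included, 4 were higher by more than 0.5 (Hnf4g, Nr0b1, Ppard and Thra) and 5 were lower (Nr4a1, Rara, Rarb, Rxrb and Pparg). Over all genes the shares were 21.5% higher and 19.8% lower. With ratios centred on the spike-ins, 12 receptors were higher and 4 lower, so the split between directions depends on the scaling. That centring raised all genes alike, to a median of 0.27, and their shares were not counted under it. The median of the 33 was 0.06, beside 0.01 over all genes.

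Markers of liver macrophages, cells in which Pparg, Nr1h3 and Nr4a1 are also expressed, differed between the pools. Of 21 such markers 20 had a probe set and 19 of these lay below 0. All 15 read in both pools did (3149 of 6459 over all genes so read), with a median of -0.57. Their summed signal was 8757.9 in control liver and 5688.8 with squalene, and Cd163 and Aif1 were read in neither. The part of this in the ratios of Pparg and Nr4a1 was not tested. Nr1h3 stood at -0.01 beside the same markers. Of 19 liver endothelial markers, 15 were read in both pools with a median of -0.17, and of 18 stellate cell and fibroblast markers 10 were, with a median of -0.39. No cholangiocyte marker was read in both pools.

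Genes that the receptors are known to control were also listed, with earlier results of these data known. Only those with both signals read are counted here. For comparison, of the 6459 genes read in both pools 5542 lay within 0.5 of 0, 3306 above 0 and 3149 below it. The lists share some genes, among them Cyp7a1, G6pc and Nr0b2, and scaling to the spike-ins would put the medians of the LXR, FXR and retinoic acid receptor lists above 0. Targets of PPAR alpha were mostly slightly lower, with 16 of 21 below 0, 4 lower by more than 0.5 (6.35% over all genes read in both pools), 0 higher (7.85%), and a median of -0.13. Acot1, an acyl-CoA thioesterase, had the lowest ratio (-1.09), followed by Plin2, a lipid droplet coat protein (-0.78), and Ehhadh, a peroxisomal oxidation enzyme (-0.67). Ppara itself stood at 0.36 in the same arrays. After scaling to the spike-ins the median of these targets was 0.13, so only their place relative to other genes is below 0.

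Targets of LXR went both ways beside the level reading of Nr1h3. Of 12, 3 were higher and 2 lower by more than 0.5 (7.85% and 6.35% over all genes), with a median of -0.02. Cyp7a1, which encodes the first enzyme of bile acid synthesis, read 885.7 and 2320.5 (1.39), Scd1, a fatty acid desaturase, stood at 1.03, and Lpl, the lipoprotein lipase, at -1.30. Targets of FXR showed little difference, with 9 of 9 within 0.5 and a median of -0.06. The highest of them was Nr0b2, which encodes the repressor SHP, at 0.49, and Nr1h4 stood at 0.26.

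Targets of CAR and PXR had a median of 0.07, and 12 of 14 lay within 0.5, much the share over all genes read in both pools (5542 of 6459). Cyp2b10, the classic CAR target, read 1782.2 and 913.1, or 1.95-fold lower with squalene (-0.96), while Cyp3a13 stood at 0.75. Nr1i3 and Nr1i2 were at -0.13 and -0.07.

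Glucocorticoid receptor targets had the largest median absolute ratio of the 10 target lists, with Nr3c1 at 0.01. Of 15, 4 were higher and 4 lower by more than 0.5 (7.85% and 6.35% over all genes), and that median absolute ratio was 0.54, beside 0.21 for all genes read in both pools. Tsc22d3, a leucine zipper protein induced by glucocorticoids, read 244.7 and 561.7 (1.20), and Zbtb16, a zinc finger repressor, 54.0 and 115.7 (1.10). Cdkn1a, the cell cycle inhibitor p21, stood at -1.11.

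Thyroid hormone targets numbered 7, of which Thrsp (1.63) and Cyp7a1 were higher by more than 0.5 and 0 lower (7.85% and 6.35% over all genes). Their median was 0.32, and 0.06 on the probe set of smallest ratio. HNF4 alpha targets stayed close to 0, with 17 of 18 within 0.5, 9 above and 9 below 0, and G6pc, the glucose-6-phosphatase gene, at -0.80. LRH-1 targets had 6 of 7 within 0.5 and a median of 0.04, the exception being Cyp7a1 at 1.39. The 3 retinoic acid targets went both ways, with Tgm2, a transglutaminase, at -0.65, Dhrs3 at -0.11 and Cyp26a1 at 0.35. Their median was -0.11, and 0.29 when all probe sets of each gene were averaged.

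Of the listed ROR targets 8 of 9 lay below 0 (3149 of 6459 over all genes read in both pools), with a median of -0.33. Bmal1 and Npas2, clock genes on the same list, were not among the 9. Rora was at 0.06. With ratios centred on the spike-ins the median was -0.07 and Rora stood at 0.32. Elovl3, a fatty acid elongase, was 2.36-fold lower (-1.24) and Cry1, a clock repressor, stood at 0.96. REV-ERB proteins bind the same elements as repressors, and Nr1d2, which encodes REV-ERB beta, read 888.4 and 1447.1 (0.70), with Nr1d1 at 0.36. Clock genes are known to vary with the hour of the day. Neither the part of the hour nor that of the REV-ERB genes in the ratios of these targets was tested. Nr1d1 and Nr1d2 were, with Nr0b2, the 3 of 12 other nuclear receptor genes read in both pools, and all 3 lay above 0.

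Coactivators were mostly above 0, and corepressors lay near it. Of 18 coactivators 13 lay above 0 (3306 of 6459 over all genes read in both pools). By more than 0.5, 6 were higher and 1 lower (7.85% and 6.35% over all genes), with a median of 0.28. That median was 0.08 when all probe sets of each gene were averaged and 0.11 on the probe set of smallest ratio. Ppargc1a, which encodes PGC-1 alpha, a partner of PPAR alpha, HNF4 alpha and ERR alpha, read 74.8 and 221.3 (1.56), and Lpin1, which also acts with it in the nucleus, 780.5 and 2088.0 (1.42). Pprc1, a related coactivator, stood at 0.73. Of 15 corepressors 15 lay within 0.5, with a median of 0.02. Both lists were chosen with earlier results of these data known, and the difference between them was not tested.

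**Figure D4:**
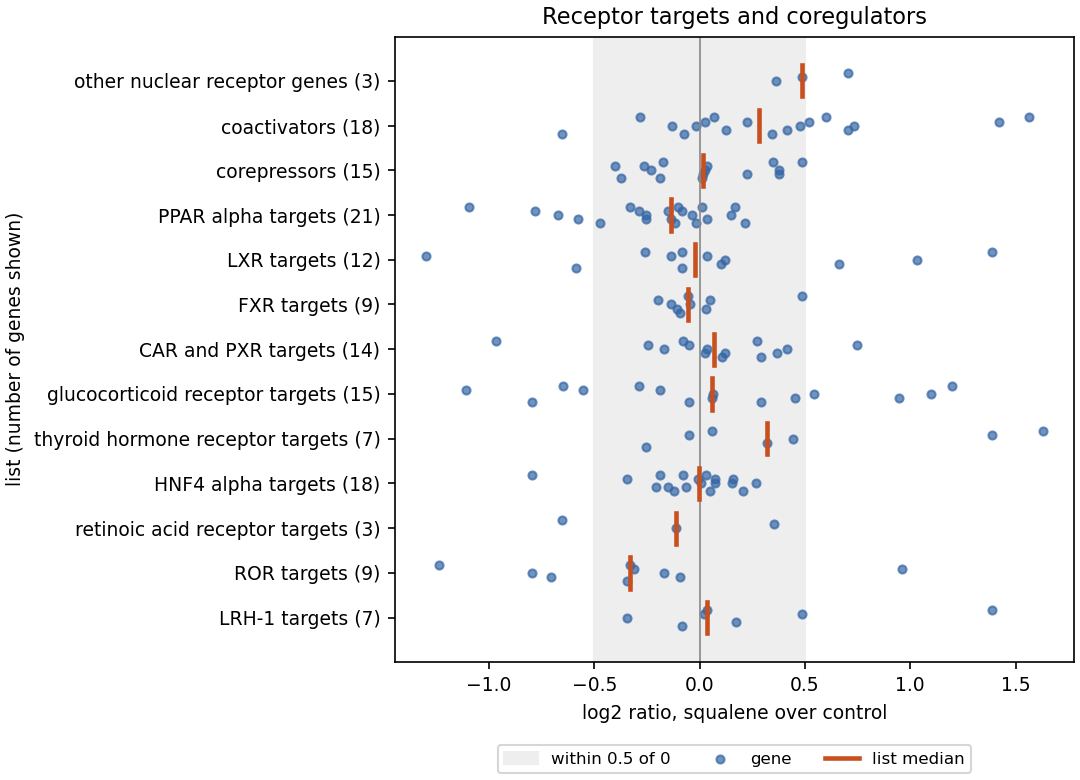
Log2 ratio of squalene over control for target genes of the receptors, coregulators and other nuclear receptor genes (rows), counting only genes read in both pools (number in brackets). Blue points are genes, orange bars list medians, and the grey band spans 0.5 either side of 0. HNF4 alpha targets other than G6pc and FXR targets other than Nr0b2 sit close around 0, whereas LXR and glucocorticoid receptor targets scatter to both sides.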

How the data were processed

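Biotin-labelled liver cRNA of 1 control pool and 1 squalene pool was measured on 1 Affymetrix array each. The authors deposited 1 MAS5 signal intensity per probe set, linear in scale, with MAS5 named in the submitters' processing notes. Its version and a genome build were not given in the sources used here.

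Of 22690 probe sets, 64 array controls were left out. Platform annotation gave 1 symbol for 20380 of the rest, several for 691 and none for 1555. The 33 receptor symbols matched RefSeq by Entrez number. Log2 ratios were taken without a pseudocount. The number of arrays limits the precision, and no p-values were computed.

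All members and lists were chosen with earlier results of these data known. Named genes are every member, and of each target or coregulator list up to 3 genes with the largest ratios among those whose signals both reached the array medians. Nr1d1 near Thra was named after its position was looked up. Promoters came from RefSeq (GRCm38.p6), and the motifs were chosen after the values were seen. Sums used all markers with a probe set. The 12 alternatives covered filters on low signals, a floor, a pseudocount of 3.0, scaling, and the choice of probe set. Counting was tested on simulated data. Python 3.11.15, numpy 2.4.6, pandas 2.3.3, matplotlib 3.10.9 and limma 3.58.1 in R 4.3.3 were used.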

Additional observations from a re-analysis of the deposited data

How the results depend on the processing

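Counts of receptors rested on dim genes, and so did those of all genes. Higher past 1.5 stood 7.86% of all genes, but 0.0774% of those read in both pools. Lower past 1.5 the shares were 7.3% and 0.0464%. Beyond 0.5 they were 21.5% and 7.85% higher, and 19.8% and 6.35% lower. For the other alternatives no shares of all genes are given, so their receptor counts have no such comparison. Receptors higher past 1.5 numbered 3, and 0 with any of the 3 filters or with floored signals. Lower past 1.5 stood 1 receptor, 0 where both signals had to reach the median or the 75th percentile or were floored, and 2 on the probe set of smallest ratio. Higher by more than 0.5 were 4 receptors, 1 where at least 1 or both signals had to reach the median or were floored, 0 with both at or above the 75th percentile, 2 on the probe set of smallest ratio, and 12 with ratios centred on the spike-ins. Lower by more than 0.5 were 5, 3 with at least 1 signal at or above the median or with plain-suffix probe sets, and 1 with both at or above the median or the 75th percentile or floored. The median of 0.06 moved beyond 0.24 only when centred on the spike-ins (0.32), which raises every gene by the same amount. Of 345 values of single receptors under 12 alternatives, 317 moved by less than the SD between probe sets at their signal, without a called one changing sign. Many of them could not move, as filters leave a ratio unchanged and the choice of probe set cannot alter the 16 genes with 1. The SD of 1.91 among dim genes also let Ppard pass on going from 1.78 to 0.05 with floored signals. Called values that changed sign numbered 4. These were Hnf4g (-2.66) and Thra (-0.36) with the probe set of smallest ratio, and Rara and Rarb with floored signals (0.0515 for Rara and 0.0515 for Rarb, the ratio of the floors). Rxrb lay between -0.83 and -0.53 under every alternative run. No paired analysis was possible because each group has 1 array, and for the same reason no array could be left out. Signals below the array medians limit 14 of the 33 receptors.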

Other observations

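The genes next to Rxrb in the RefSeq gene table did not share its low ratio. Slc39a7, a zinc transporter of the secretory pathway, read 197.3 in control liver and 256.9 with squalene (log2 ratio 0.38). H2-Ke6, a hydroxysteroid dehydrogenase gene beyond Slc39a7, read 322.9 and 305.1 (-0.08). Ring1 and Col11a2 were below the array medians in both pools, with ratios of -0.03 and 0.01.

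The core that nuclear receptors themselves bind, AGGTCA on either strand, was found in 14.0% of the 32851 promoters of 250 bases and in 10 of the 49 promoters of receptor genes (20.4%). Those 10 belong to 9 genes, among them Nr1h4, Nr5a2, Rxra and Pparg. The E-box CACGTG was found in 6.02% of all promoters and in 3 of the 49, of the genes Nr1i3, Rara and Thrb. Promoters of 1 gene can overlap, so these counts are not of independent sequences.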
